A study of Mus musculus with 24 samples.

Results

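Among 47937 genes measured by total RNA sequencing in mouse embryonic fibroblasts (MEFs), 27 gave no read at all in the control cells and at least 20 reads in every library of 3 mutant lines, 1 with and 2 without the Suv39h enzymes. These 27 genes were chosen by measured values, namely a raw count of 0 in each of the 3 control (WT) libraries and of 20 or more in each of the 9 libraries of the E1E2 G9Gl, 6KO1 and 6KO2 lines, so their silence in WT and their activity in those lines is the choice and not a result. The symbol families Zfp, Slfn, Pcdh, Hox, Hist, Cacna1 and Mapk were left out, which removed 1 gene, Mapk4, from 28. In all, 24009 genes had no read in the WT libraries. The Ensembl identifiers and GRCm38 positions are those of the count table and of the GENCODE M21 annotation.

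The study removed the enzymes that methylate lysine 9 of histone H3 (H3K9), alone and in combination, and asked what each contributes to silencing. The cells called WT are the E25 line, which carries the conditional Eset1 cKO allele (Eset1 is also called Setdb1) and received no 4-hydroxytamoxifen (4-OHT). The same cells after 4-OHT (1 uM for 2 days, then 2 days in normal medium), which deletes Eset1 through a tamoxifen-inducible Cre, are E1. The A4 line carries in addition a knockout of Eset2 (Setdb2) and is called E2 without 4-OHT and E1E2 with it. The B1 line lacks Suv39h1 and Suv39h2 (S1S2) and was treated with 4-OHT to give E1 S1S2. The line named E2 in the sample titles, derived from A4, lacks G9a (Ehmt2) and Glp (Ehmt1) as well and gave E1E2 G9Gl after 4-OHT. The 2 lines B1A6 (6KO1, from B1) and E2F4 (6KO2, from the E1E2 G9Gl line) lack all 6 enzymes after 4-OHT. According to the study, an inducible Cre construct was added again after the CRISPR/Cas9 gene disruptions, and lines were kept in puromycin. The mutant lines may therefore differ from the E25 cells by more than the named knockouts. Every condition but WT and E2 received 4-OHT, and none received it without the deletion of Eset1. An effect of 4-OHT itself therefore cannot be told apart from that of losing Eset1. Each condition has 3 libraries. Each line is 1 clone, so a difference between lines cannot be told apart from a difference between clones, and the 3 libraries, described by the study as biological replicates of a cell line, give p-values that measure the spread within that clone.

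H3K9 methylation is a mark of silent chromatin. The Suv39h enzymes place its trimethylated form on pericentric heterochromatin, G9a and Glp act together on the mono- and dimethylated forms in gene-rich chromatin, and Eset1 trimethylates H3K9 at retroviral elements and at some genes. Genes that serve 1 tissue only, such as liver enzymes, pheromone receptors or gut proteins, are normally not transcribed in fibroblasts.

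Total counts ran from 24737307 to 37419816 per library, of which 19541909 to 31489070 fell on genes. Defining fibroblast transcripts were present in every library but at uneven levels, with at least 12127 reads on Col1a1 (36739 in WT), 8570 on Col1a2 (42942 in WT) and 35355 on Vim (44825 in WT), while Thy1 ran from 0 to 395. The summed level of the 14 fibroblast markers was 175000 to 218000 normalized counts in WT, 227000 to 244000 in E1E2 G9Gl, 98700 to 110000 in the 6KO1 line and 146000 to 149000 in 6KO2, with 1 marker of the 14 at 0 in each. Of the 13 tested, 3 were called higher and 3 lower in E1E2 G9Gl, 1 higher and 2 lower in 6KO2, and 7 lower in 6KO1. Markers of other cell types were far lower in sum, but several of those lists were higher in the 3 lines than in WT. The 10 epithelial markers summed to 195 to 243 in WT against 1560 to 3140 in the 3 lines, and the 13 neuron markers to 1140 to 1430 in WT against 2340 to 2450 in E1E2 G9Gl, 560 to 648 in the 6KO1 line and 4820 to 5230 in 6KO2. The 13 leukocyte markers went from 93.1 to 110 in WT to between 144 and 860, and Ptprc, which defines leukocytes, was at 0 in WT and at most 42 elsewhere. The 6 endothelial markers went from 13 to 15.5 in WT to between 72.5 and 227, the 8 muscle markers from 82.3 to 102 to between 370 and 756, and the 7 pluripotent cell markers from 7.3 to 18.1 to between 11.7 and 41.4. Whether other cell types have a part in the activity of the 27 genes was not tested, and fewer cells of a type cannot be told apart from less RNA per cell.

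Gene-level counts check the genotypes only in part, because the frameshift alleles and the few deleted exons leave most of the transcript in place. Ehmt2 had 937 to 1041 normalized counts in E1E2 G9Gl, 1223 to 1387 in the 6KO1 line and 2090 to 2292 in 6KO2 against 2668 to 3602 in WT. Suv39h1 had 802 to 877 in the 6KO1 line and 1570 to 1608 in 6KO2 against 2736 to 2849 in WT and 1958 to 2063 in E1E2 G9Gl. Suv39h2 did not follow the genotypes, with 1092 to 1108 in 6KO1 and 1549 to 1850 in E1 S1S2 against 929 to 1095 in WT, and its lowest values, 355 to 370, in E1E2 G9Gl, where it is intact. Setdb1 had 1477 to 1612 in WT and 657 to 1267 in the conditions treated with 4-OHT, where its range in E1E2 (1187 to 1267) lay inside that of E2 (1018 to 1398).

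The set had no single theme. By annotation, 13 of the 27 were protein-coding (28.2% of WT-silent genes and 45.1% of all genes), 5 were pseudogenes, 7 were long non-coding RNAs or transcripts of unsettled type, 1 was a predicted miRNA and 1, ENSMUSG00000102012, was not in the annotation used. The protein-coding members included metabolic enzymes of liver and gut, namely the cytochromes Cyp7a1, the rate-limiting enzyme of bile acid synthesis, and Cyp2b13, the aldo-keto reductase Akr1c12, the pancreatic lipase relative Pnliprp2 and Gm10639, whose sequence is close to the alpha-class glutathione S-transferases. The other named coding members were Cdhr2, a protocadherin of the intestinal brush border, the vomeronasal receptor Vmn1r212, the innate immune sensor Naip6, the synaptic adhesion protein Lrrc4c, and Gml and Gml2, which belong to the family of GPI-anchored Ly6 proteins. Gm773 and Gm6871 were predicted coding genes. The pseudogenes were Gm10693, Gm11427, Gm371, Mup-ps9 (a relic of the major urinary protein genes) and Gm7893, and the non-coding members were Gm11033, 1700019E08Rik, Gm13348, D730045A05Rik, Gm28322, Gm28465 and Gm37924, besides the predicted miRNA Gm24587. Predicted symbols (Gm and a number) made up 13 of the 27, 58.2% of WT-silent genes and 43.4% of all genes. Of a list of 140 germline and meiosis genes (0.371% of WT-silent genes and 0.292% of all genes) none was a member, which at these shares says little. Of its 43 tested genes, 20 were higher than WT in E1E2 G9Gl (16.8% of all tested genes), 29 in the 6KO1 line (20.6%) and 23 in 6KO2 (15.3%). In this list 89 genes had no read in WT, and such genes pass the filter on low counts only by being high elsewhere.

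Members lay on 14 chromosomes, with 5 on chromosome 13 (Akr1c12, Gm28465, Vmn1r212, Cdhr2 and Naip6), which carries 3.09% of all genes. The only close pair was Gml and Gml2 on chromosome 15, whose starts are 256 bp apart on opposite strands (chr15:74813452-74818815 and chr15:74819071-74834871). The next closest pair, Akr1c12 and Gm28465, was separated by 2116283 bp. The 26 members with a position therefore came from 25 separate places in the genome.

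Promoter sequence from RefSeq (GRCm38.p6, 250 bases before to 50 after the start) was found for 11 members. These promoters were poor in CpG dinucleotides, the site of DNA methylation, with 0 to 8 CpG and a median of 4 per 300 bases against a median of 7 and a highest value of 67 over 32851 promoters. All 11 had 8 CpG or fewer, as had 54.2% of all promoters, and 8 of the 11 had 5 or fewer, as had 43.6%. Promoters of the other WT-silent genes were not compared, so a low CpG count is not shown to be particular to the members. The letters CACGTG (the core of an E-box), GCGGGAA (of an E2F element) and TATAAA (of a TATA box) were searched on both strands. The first was in none of the 11 (7.15% of all promoters) and so was the second (4.6%), and TATAAA was in 1, that of Vmn1r212, with its first base at -82 (13.6% of all promoters). The promoters of 4 members are shown with each CpG in capitals, since the results turn on these genes. Cyp2b13 and Vmn1r212 already had over 20 reads per library in E1, and Cdhr2 and Akr1c12 differed in opposite directions between the lines with and without Suv39h.
Cyp2b13 (chr7:26061245-26061544, + strand): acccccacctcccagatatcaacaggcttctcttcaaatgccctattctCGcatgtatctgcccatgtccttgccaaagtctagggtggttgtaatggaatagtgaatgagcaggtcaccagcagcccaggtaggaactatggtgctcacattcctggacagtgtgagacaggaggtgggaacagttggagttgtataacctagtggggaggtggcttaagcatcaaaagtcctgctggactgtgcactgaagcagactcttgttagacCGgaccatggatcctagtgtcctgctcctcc
Vmn1r212 (chr13:22884112-22884411, - strand): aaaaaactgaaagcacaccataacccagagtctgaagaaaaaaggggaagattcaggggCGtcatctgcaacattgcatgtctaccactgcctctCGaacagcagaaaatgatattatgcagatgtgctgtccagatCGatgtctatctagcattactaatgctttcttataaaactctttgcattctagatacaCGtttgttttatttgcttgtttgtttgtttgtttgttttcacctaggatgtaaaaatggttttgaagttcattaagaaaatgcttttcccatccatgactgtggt
Cdhr2 (chr13:54701213-54701512, + strand): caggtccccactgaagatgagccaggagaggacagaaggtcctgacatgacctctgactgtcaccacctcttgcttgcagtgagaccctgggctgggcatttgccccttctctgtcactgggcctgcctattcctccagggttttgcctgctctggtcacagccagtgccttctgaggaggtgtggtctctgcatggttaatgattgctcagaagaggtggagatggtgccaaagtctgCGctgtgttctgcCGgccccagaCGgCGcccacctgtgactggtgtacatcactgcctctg
Akr1c12 (chr13:4279350-4279649, - strand): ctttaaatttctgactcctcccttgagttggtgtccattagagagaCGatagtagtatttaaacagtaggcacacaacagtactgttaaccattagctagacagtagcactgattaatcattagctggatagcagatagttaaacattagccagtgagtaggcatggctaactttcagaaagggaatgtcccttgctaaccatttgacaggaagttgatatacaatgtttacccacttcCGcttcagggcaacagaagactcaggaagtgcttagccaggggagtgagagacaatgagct

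These windows held 2 CpG (Cyp2b13), 4 (Vmn1r212), 4 (Cdhr2) and 2 (Akr1c12), with a GC content of 51.3%, 37.3%, 58.0% and 42.3%. The 89-base transcript of the predicted miRNA Gm24587 (chr10:96855582-96855670, - strand) is a run of mostly alternating purines and pyrimidines, shown because reads of such a simple repeat are hard to place:
Gm24587: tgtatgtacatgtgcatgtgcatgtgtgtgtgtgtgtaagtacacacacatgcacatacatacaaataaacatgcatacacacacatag

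The heat map of normalized counts gives each member in each library. Normalized counts are raw counts scaled by the TMM library factors of edgeR to the mean library size.

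**Figure D1:**
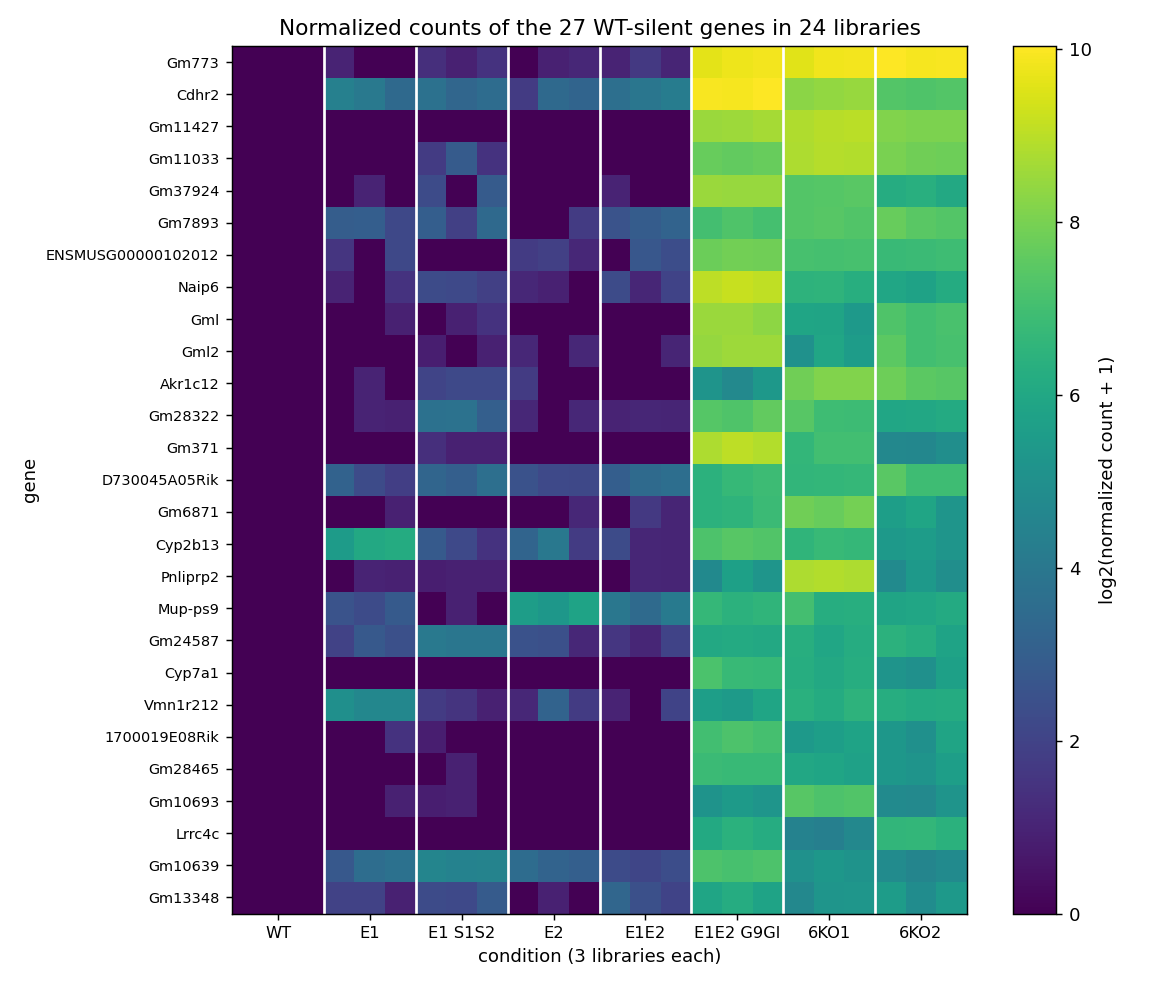
Normalized counts, as log2(count + 1), of the 27 genes (vertical axis, ordered by their mean in the 3 lines of the choice) in 24 libraries (horizontal axis, 3 per condition). The WT block is at 0 by the choice of the genes, the 3 lines on the right are all high by the same choice, and scattered low values fill the 4 conditions between, with Cyp2b13 and Vmn1r212 in E1 and Mup-ps9 in E2 the brightest.

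Of the 24009 WT-silent genes, 213 (0.887%) reached 20 reads in all libraries of E1E2 G9Gl, 247 (1.03%) of 6KO1 and 132 (0.55%) of 6KO2. The 27 members are those that did so in all 3, so each count of members in these lines is 27 by choice. Against the limit that 3 counts over the WT group set, the rise ran from at least 21.7-fold for Lrrc4c in 6KO1 to at least 1000-fold for Gm773 in 6KO2. Over all 18565 tested genes, 16.8% were higher than WT in E1E2 G9Gl, 20.6% in the 6KO1 line and 15.3% in 6KO2 (edgeR, called at an adjusted p up to 0.01 and a change of 1 or more on the log2 scale). All 27 members passed the filter on low counts, and they passed it through the lines in which they were chosen to be high.

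Close to the limit of 20, Gm10639 ran from 20 to 140 reads over the 9 libraries, Gm371 from 21 to 458 and Akr1c12 from 22 to 318. Just outside lay Ces1a with 19 to 113 reads, Scml2 with 18 to 56 and Smoc1 with 18 to 315. A further 24 genes met the limit in the 9 libraries but had 1 read in all over WT. Without WT replicate 2, the deepest of the 3 WT libraries, 47 genes would have met the rule.

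The other 4 mutant conditions took no part in the choice. The members were mostly silent or nearly so there. In E1, 2 of the 27 reached 20 reads in all 3 libraries (0.0125% of WT-silent genes did), in E1 S1S2 1 did (0.0333%), in E2 1 did (0.0208%) and in E1E2 none did (0.0333%). A lower bar, at least 1 read in all 3 libraries, was met by 9 members in E1 (0.858% of WT-silent genes), 15 in E1 S1S2 (1.62%), 11 in E1E2 (1.28%) and 8 in E2 (0.525%). No read at all was found for 5 members in E1 S1S2 (86.4% of WT-silent genes), 7 in E1 (90.1%), 10 in E1E2 (88.3%) and 11 in E2 (92.8%). Gm11427, Cyp7a1 and Lrrc4c had no read in any of these 12 libraries.

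Cyp2b13, a liver cytochrome of the Cyp2b family, was active in E1, where Eset1 alone of the 6 enzymes is lost and 4-OHT was given. It had 46, 67 and 80 reads in E1, 8, 4 and 2 in E1 S1S2, 7, 17 and 2 in E2 and 4, 1 and 1 in E1E2, then 139, 146 and 121 in E1E2 G9Gl, 106, 124 and 104 in the 6KO1 line and 40, 40 and 33 in 6KO2. The E1 libraries thus lay above every library of E1 S1S2, E2 and E1E2. Its level was lower in E1 S1S2 than in E1 (log2 fold change -3.88, SE 0.35, adjusted p = 1.44e-08, edgeR) and lower in E1E2 than in E1 (-4.79, SE 0.42, adjusted p = 2.27e-08, edgeR). Of its words (stretches of 50 exon bases), 27.3% are found in other annotated genes, so reads of related cytochromes could be counted with it.

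Vmn1r212, a pheromone receptor gene with a single exon (chr13:22883042-22884205), had the same order of mean levels in E1, E2, E1 S1S2 and E1E2. In the 3 lines of the choice its order differed from that of Cyp2b13. Its counts were 32, 24 and 27 in E1, 3, 2 and 1 in E1 S1S2, 1, 9 and 2 in E2, and 1, 0 and 3 in E1E2. It then had 45, 37 and 45 reads in E1E2 G9Gl, 92, 81 and 90 in the 6KO1 line and 73, 60 and 65 in 6KO2. It was lower in E1 S1S2 than in E1 (log2 fold change -3.84, SE 0.44, adjusted p = 3.73e-07, edgeR), and lower in E1E2 than in E1 (-4.12, SE 0.49, adjusted p = 1.1e-06, edgeR). The gene was therefore read in E1, nearly silent in the next conditions and active again in the 3 lines lacking G9a and Glp. E1 S1S2 and E1E2 share E1 as their reference in these contrasts. Of the 50-base words of Vmn1r212, 14.7% occur in other genes.

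Mup-ps9 was the member most active in E2, with 40, 43 and 47 reads. E1E2, the same clone after 4-OHT, had 15, 9 and 16 (log2 fold change -1.75, SE 0.29, adjusted p = 0.000142, edgeR). In the other series it went from 5, 4 and 7 reads in E1 to 0, 1 and 0 in E1 S1S2 (-3.65, SE 0.91, adjusted p = 0.00248, edgeR). Leaving out a single library (replicate 1 or 3 of E1 S1S2 or replicate 3 of E1) moved this adjusted p to between 0.0114 and 0.0154. Fitted on the 6 libraries of E1 and E1 S1S2 alone, Mup-ps9 did not pass the filter on low counts. With 93.1% of its 50-base words in other genes, the counts of this pseudogene cannot be assigned to it with certainty.

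4 members were higher in E1 S1S2 than in E1, against 4.31% of tested genes, and the 3 already named were lower, against 3.74%. These counts and shares do not weigh the same thing, since most members passed the filter on low counts through the lines that chose them: fitted on the 6 libraries compared alone, 5 members passed, of which 2 were called higher (Gm10639 and Gm24587) and 2 lower (Cyp2b13 and Vmn1r212). Gm10639 (chr9:78289923-78305525) had 6, 11 and 14 reads in E1 and 29, 23 and 24 in E1 S1S2 (log2 fold change 1.15, SE 0.22, adjusted p = 0.000421, edgeR). Its counts were 9, 9 and 6 in E2 and 4, 3 and 4 in E1E2, so E1 S1S2 was the condition with the highest counts outside the 3 chosen lines. Without E1 replicate 1 its log2 fold change was 0.896, below the limit of 1. Gm28322, a single-exon transcript inside the gene Tmeff2 on the same strand, had 0, 1 and 1 reads in E1 and 16, 14 and 8 in E1 S1S2 (3.86, SE 0.60, adjusted p = 2.03e-05, edgeR). The groups did not overlap, and Tmeff2 itself had 64 to 95 reads in E1 and 302 to 324 in E1 S1S2, so the host gene moved the same way, and the part of its reads in the count of Gm28322 was not tested.

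Gm24587, the predicted miRNA, had 3, 6 and 5 reads in E1 and 20, 16 and 16 in E1 S1S2 (1.73, SE 0.35, adjusted p = 0.000369, edgeR), with 4, 5 and 1 in E2 and 2, 1 and 3 in E1E2. It had 61, 60 and 51 reads in E1E2 G9Gl, 89, 70 and 75 in the 6KO1 line and 84, 66 and 50 in 6KO2, levels that overlapped between all 3 lines. Gm24587 lies inside Gm48521, a long non-coding RNA gene on the opposite strand. None of its 50-base words occurs in another annotated gene. Where the reads over this simple repeat come from was not tested. The long non-coding RNA Gm11033 (chr8:74590987-74833947) had no read in E1, E2 and E1E2 and 3, 7 and 2 in E1 S1S2 (adjusted p = 0.000906, edgeR, and 0.0125 without E1 S1S2 replicate 2). Like Mup-ps9 and Gm28322, it did not pass the filter on low counts when the 6 libraries of E1 and E1 S1S2 were fitted alone.

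The E2 cells after 4-OHT, with Eset1 deleted (E1E2 against E2), had 2 members called higher, against 2.32% of tested genes. In the same contrast 1 was called lower, Mup-ps9, against 0.657%. Fitted on these 6 libraries alone, 2 members passed the filter, Cdhr2 and Mup-ps9, and the latter was called. Gm13348, a short antisense transcript on chromosome 2, went from 0, 1 and 0 to 9, 4 and 3 reads (log2 fold change 3.55, SE 0.89, adjusted p = 0.00639, edgeR). Gm7893 (chr1:31164549-31164773), a processed pseudogene of 225 bases, went from 0, 0 and 2 to 5, 6 and 8 (2.997, SE 0.75, adjusted p = 0.00651, edgeR). Both counts are small. Both calls were lost in DESeq2 (adjusted p = 0.0154 and 0.0191), and also without E1E2 replicate 2, E2 replicate 1 or E2 replicate 2, each of which left 1 member called.

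Between the clones E1E2 and E1, 2 members were called, Cyp2b13 and Vmn1r212, both lower, where 2.1% of tested genes were lower and 3.69% higher. No member was called higher in this edgeR fit or in DESeq2, 3 were higher at an unadjusted p under 0.05, and 1 was called higher in edgeR with a replicate block, with no filter on low counts or with only the 6 libraries compared. The plot of the 9 members called in any of these contrasts gives each library.

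**Figure D2:**
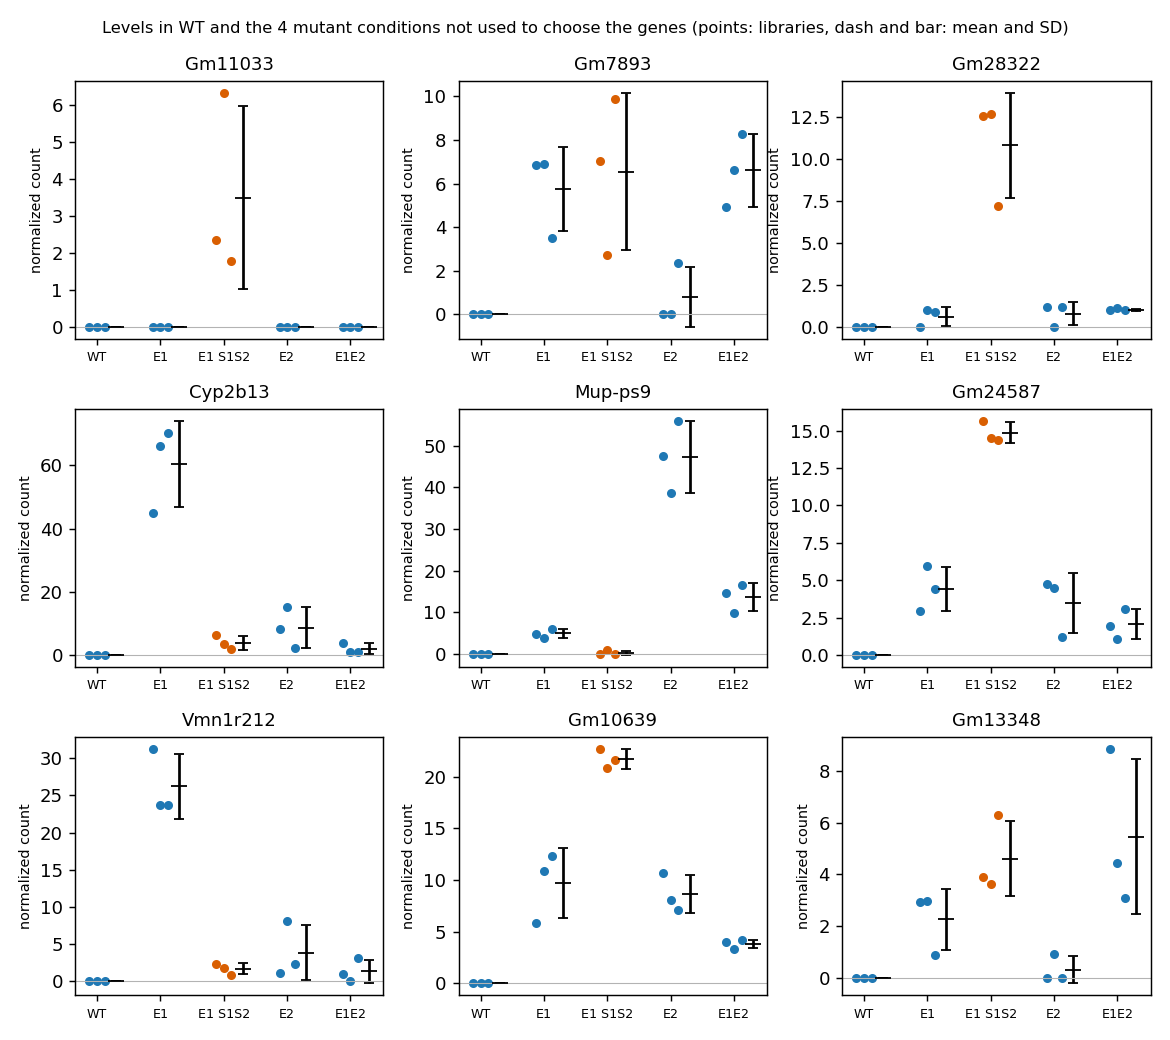
Normalized counts (vertical axes, linear and scaled to each gene) of the 9 members called in at least 1 contrast among E1, E1 S1S2, E2 and E1E2 (horizontal axes), with WT beside them. Points are libraries (orange where Suv39h1 and Suv39h2 are lost), and the dash and bar are the mean and SD of 3 libraries. Cyp2b13 and Vmn1r212 stand high in E1 only, Mup-ps9 in E2, and Gm10639, Gm24587, Gm28322 and Gm11033 in E1 S1S2.

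In the 3 lines lacking G9a and Glp the members did not share 1 pattern. Comparisons between these lines are descriptions, since all 9 libraries were used in the choice. E1E2 G9Gl gave the highest mean level for 14 members, 6KO1 for 8 and 6KO2 for 5, and 6KO2 gave the lowest for 16. 6KO2 derives from E1E2 G9Gl by the additional loss of Suv39h1 and Suv39h2. In that step, all libraries of 6KO2 lay below all those of E1E2 G9Gl for 17 members, above for 6, and overlapped for 4, where 33.2% of all tested genes lay below in this way and 34.3% above. The members had a median log2 difference of -0.998 (0.0152 over all tested genes). Against 6KO1, which has the same 6 losses in another clone, E1E2 G9Gl did not overlap for 22 members, of which 14 were lower in 6KO1 (34.7% of tested genes) and 8 higher (36.8%). 6KO1 and 6KO2 did not overlap for 22 members either, 17 of them higher in 6KO1 (35.3% of tested genes) and 5 lower (34.1%). Non-overlap between these lines was thus common over all genes.

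**Figure D3:**
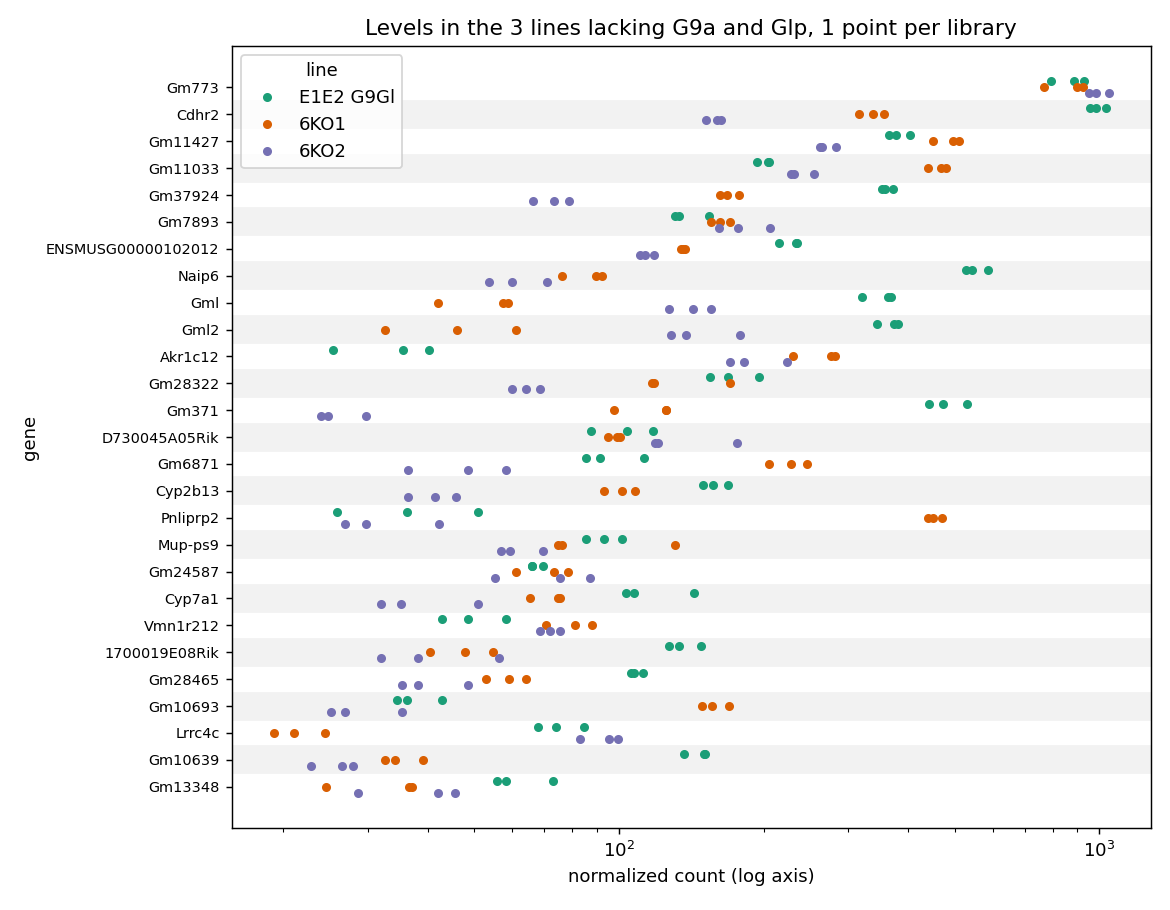
Normalized counts (horizontal axis, log scale) of the 27 genes (vertical axis, same order as in the heat map) in E1E2 G9Gl, 6KO1 and 6KO2, 1 point per library. The 3 libraries of a line lie close together for most genes while the lines stand apart, as for Gm371, Naip6, Pnliprp2 and Akr1c12, and the order of the lines changes from gene to gene.

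The most read member was Gm773, a predicted coding gene on the X chromosome (chrX:56189827-56212881), with 735, 767 and 717 reads in E1E2 G9Gl, 870, 1034 and 945 in the 6KO1 line, 1011, 831 and 889 in 6KO2, and at most 2 in any other library. Its level was nearly even between the lines, with a ratio of 1.14 of 6KO2 to E1E2 G9Gl and of 0.993 of 6KO1 to E1E2 G9Gl. Per kilobase of exon it was also the highest of the 26 annotated members, with 914 normalized counts per kb in E1E2 G9Gl, 907 in the 6KO1 line and 1040 in 6KO2. The lowest on that scale in E1E2 G9Gl was Gm10693, with 9.41.

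Among the enzymes, Akr1c12, a hydroxysteroid dehydrogenase of the aldo-keto reductase family (chr13:4268176-4279433), had the largest rise of the set from E1E2 G9Gl to 6KO2. It had 33, 22 and 31 reads in E1E2 G9Gl, 216, 159 and 154 in 6KO2 and 262, 318 and 288 in 6KO1. In normalized counts these are 33.7 ± 7.53, 192 ± 28.0 and 263 ± 28.3 (SD, n = 3), 5.69 times more in 6KO2 and 7.8 times more in 6KO1 than in E1E2 G9Gl. It also had 4, 4 and 4 reads in E1 S1S2 against 0, 1 and 0 in E1, which did not pass the test (adjusted p = 0.014, edgeR). Of its 50-base words 28.6% occur in another gene, Akr1c13.

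Pnliprp2 and Gm10693 were high in 6KO1 alone of the 3 lines. Pnliprp2 had 24, 44 and 28 reads in E1E2 G9Gl, 500, 541 and 460 in the 6KO1 line and 26, 37 and 27 in 6KO2, so that 6KO1 stood 12 times above E1E2 G9Gl and 13.7 times above 6KO2. Gm10693, a pseudogene close to the leukocyte receptors Pira2 and Lilra6, had 32, 37 and 28 reads, then 193, 171 and 160, then 26, 22 and 32. The other 6-enzyme mutant did not share these levels. Of the 50-base words of Gm10693, 44.5% occur in other genes, Pira2 and Lilra6 among them, so reads of related genes could be counted with it. Gm6871 (79, 79 and 87 in E1E2 G9Gl, 259, 236 and 252 in the 6KO1 line, 47, 51 and 33 in 6KO2) was highest in 6KO1 too, and shares 324 bp of exon with Gm17217 on the same strand.

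Cyp7a1 (chr4:6265612-6275633) had no read in the 15 libraries outside the 3 lines and 133, 93 and 80 in E1E2 G9Gl, 85, 75 and 77 in the 6KO1 line and 34, 28 and 46 in 6KO2. None of its 50-base words is shared with another gene. Lrrc4c, a neuronal gene spanning over 1 Mb on chromosome 2, was likewise at 0 outside the 3 lines and had 63, 73 and 57 reads in E1E2 G9Gl, 24, 22 and 25 in the 6KO1 line and 92, 87 and 75 in 6KO2. Unlike most members it was lowest in 6KO1.

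Several members well read in E1E2 G9Gl were far lower in both lines without Suv39h. Cdhr2 (chr13:54701461-54736662) had 912, 828 and 798 reads in E1E2 G9Gl, 359, 388 and 365 in the 6KO1 line and 158, 133 and 145 in 6KO2, a ratio of 0.16 of 6KO2 to E1E2 G9Gl. It was also read in each of the 12 libraries of the other mutant conditions, with 20, 16 and 11 reads in E1, 16, 10 and 12 in E1 S1S2, 2, 11 and 7 in E2 and 12, 13 and 17 in E1E2. Naip6, one of the receptors of bacterial flagellin, had 490, 506 and 419 reads, then 102, 106 and 78 in the 6KO1 line and 58, 47 and 64 in 6KO2 (ratio 0.111 of 6KO2 to E1E2 G9Gl). Gm371, a processed pseudogene on the X chromosome, had 409, 458 and 365 reads, then 111, 144 and 128 and then 24, 21 and 27, the strongest fall (ratio 0.0545).

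Gm37924 had 344, 310 and 272 reads in E1E2 G9Gl, 185, 193 and 182 in the 6KO1 line and 71, 69 and 60 in 6KO2 (ratio 0.202 of 6KO2 to E1E2 G9Gl), and Gm10639 had 140, 118 and 116, then 37, 45 and 35 and then 27, 20 and 24 (0.177). These 5 falls are the largest of the set between E1E2 G9Gl and 6KO2, with no library of one line inside the range of the other.

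The divergent pair Gml and Gml2 moved together. Gml had 337, 319 and 247 reads in E1E2 G9Gl, 67, 66 and 43 in the 6KO1 line and 150, 111 and 129 in 6KO2, and Gml2 had 319, 330 and 288, 37, 70 and 47, and 173, 112 and 125. Both had ratios of about the same size, 0.403 and 0.405 in 6KO2 and 0.151 and 0.127 in 6KO1 relative to E1E2 G9Gl. The exons of Gml2 overlap those of Cyp11b1 on the other strand by 285 bp, the 2 members share part of their sequence, and 30.8% of Gml2 and 18.7% of Gml words occur in other genes, so the pair is not 2 independent observations.

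The other members differed between the lines by varying amounts. Gm11427, a pseudogene in the Slfn cluster on chromosome 11, had 338, 326 and 312 reads in E1E2 G9Gl, 513, 569 and 521 in the 6KO1 line and 273, 229 and 240 in 6KO2, with 491 bp of exon shared with AI662270 on the same strand. Gm11033 had 190, 168 and 158, then 499, 552 and 478, then 246, 202 and 206 reads, a level 2.3 times higher in 6KO1 than in E1E2 G9Gl. Gm7893 (121, 133 and 103, 185, 196 and 159, 199, 155 and 146 in the same order) and ENSMUSG00000102012 (200, 203 and 180, 156, 155 and 139, 107, 99 and 107) had ratios of 1.3 and 0.5 of 6KO2 to E1E2 G9Gl.

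D730045A05Rik lies inside Mapk4 on the opposite strand, and both were active, with 81, 90 and 91 reads in E1E2 G9Gl, 108, 114 and 103 in the 6KO1 line and 170, 104 and 109 in 6KO2 for D730045A05Rik and 80 to 328 in the same libraries for Mapk4. The strand setting of the counting is not given in the sources used here, so reads of the 2 cannot be told apart with certainty. Gm28322 had 156, 134 and 151, 194, 136 and 120, and 58, 56 and 62 reads, and Mup-ps9 had 94, 74 and 72, 149, 86 and 78, and 55, 52 and 63. Gm13348 (54, 63 and 43, 28, 42 and 38, 44, 25 and 38), 1700019E08Rik (118, 128 and 103, 46, 55 and 56, 37, 28 and 51) and Gm28465 (104, 93 and 82, 73, 68 and 54, 37, 31 and 44) were highest in E1E2 G9Gl. All 3 had a lower mean in both lines without Suv39h.

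Many members sat beside other genes that were higher in the same lines. Within 50 kb of a member the table holds 87 other genes, of which 58 had no read in WT and 33 passed the filter. Of these 33, 17 were higher than WT in E1E2 G9Gl (51.5%, against 16.8% of all tested genes), 19 in 6KO1 (57.6%, against 20.6%) and 16 in 6KO2 (48.5%, against 15.3%). A gene that is silent in WT can pass the filter only by being high elsewhere, so the shares were also taken by WT level. Among neighbours with at most 10 WT reads in all, 14 of 15 were higher in E1E2 G9Gl (64.3% of all tested genes of that class), 15 of 15 in 6KO1 (79.4%) and 13 of 15 in 6KO2 (70.7%). These 15 are not all independent of the choice. Mapk4 is among them, and it meets the count rule and was left out by its symbol. AI662270, Cyp11b1, Naip5, Naip3, Gsta1 and Gsta2 share exon bases or sequence with the member beside them. Among neighbours with more reads in WT, 3 of 18 were higher in E1E2 G9Gl (11.5% of that class), 4 of 18 in 6KO1 (14.1%) and 3 of 18 in 6KO2 (9.15%).

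**Figure D4:**
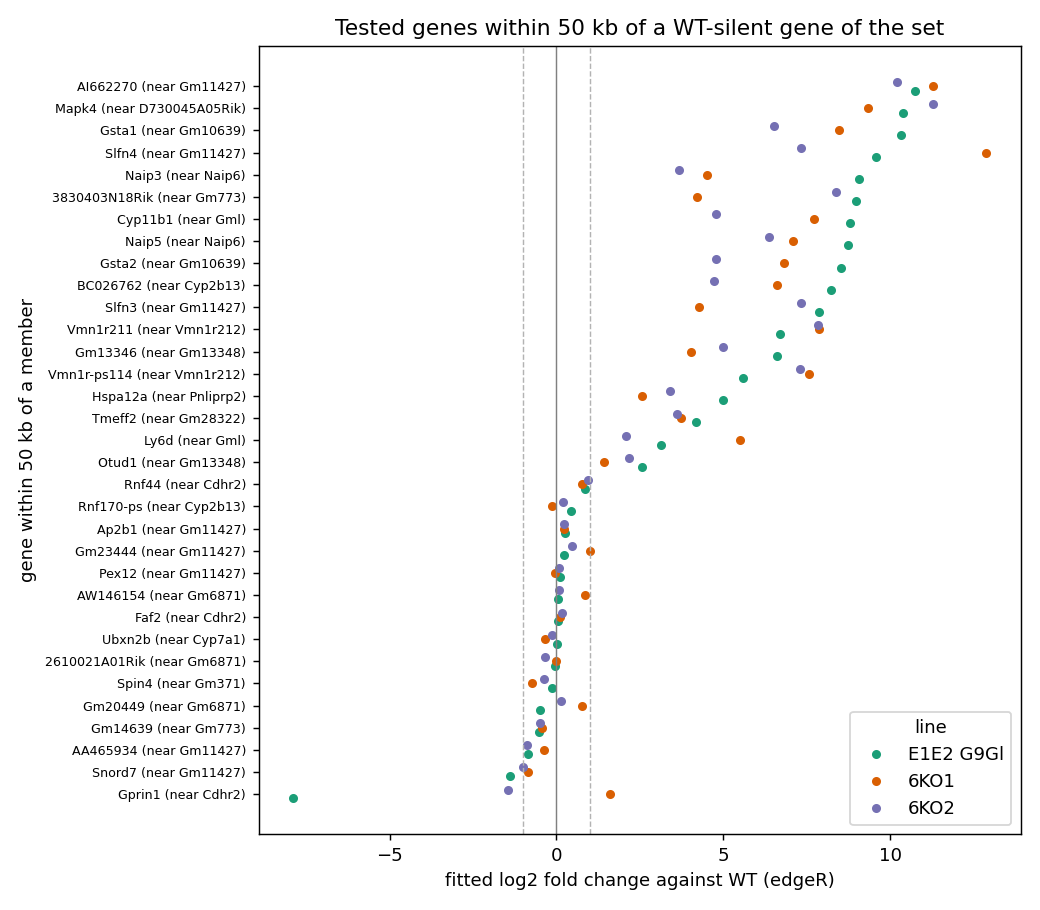
Fitted log2 fold change against WT (horizontal axis, edgeR, dashed lines at 1 and -1) of the 33 tested genes within 50 kb of a member (vertical axis), in E1E2 G9Gl, 6KO1 and 6KO2. Many lie far to the right in all 3 lines, most of the rest between the dashed lines, and Snord7 and Gprin1 lie to the left of -1 in E1E2 G9Gl (-1.39 and -7.88). For genes at 0 in WT the size of the fitted value depends on the prior count and only its side should be read.

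Related genes stood together at several of these places. Beside Gm10639 lies Gsta1, an alpha-class glutathione S-transferase, with 1 to 3 reads in WT, 96 to 131 in E1, 435 to 536 in E1 S1S2, 2148 to 2437 in E1E2 G9Gl, 769 to 888 in the 6KO1 line and 155 to 195 in 6KO2. Like Gm10639 it was highest in E1E2 G9Gl and higher in E1 S1S2 than in E1. Of the words of Gm10639, 49.4% occur in other genes, Gsta2 and Gsta1 among them, so part of its count may belong to its neighbours. Naip5 beside Naip6 had 0 to 1 reads in WT, 269 to 301 in E1E2 G9Gl, 109 to 124 in the 6KO1 line and 55 to 61 in 6KO2, and 16.9% of Naip6 words occur in Naip5. Vmn1r211 beside Vmn1r212 had 0 reads in WT, 8 to 9 in E1, 0 to 1 in E1 S1S2 and 29 to 35 in 6KO1, and was thus higher in E1 than in E1 S1S2 in raw counts, as was Vmn1r212.

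Other neighbours are unrelated in sequence. Hspa12a, a member of the heat shock protein A family 18216 bp from Pnliprp2, had 35 to 39 reads in WT, 936 to 1000 in E1E2 G9Gl, 226 to 252 in the 6KO1 line and 302 to 390 in 6KO2 (log2 fold changes 4.98, 2.55 and 3.41). Its highest line was E1E2 G9Gl whereas that of Pnliprp2 was 6KO1. 3830403N18Rik, 36329 bp from Gm773, had 0 to 3 reads in WT, 570 to 649 in E1E2 G9Gl, 27 to 32 in the 6KO1 line and 367 to 489 in 6KO2, while Gm773 was even over the lines. Tmeff2, the host of Gm28322, rose from 78 to 99 reads in WT to 1168 to 1481 in E1E2 G9Gl (4.19), and Otud1, near Gm13348, from 260 to 283 to 1220 to 1526 (2.57). None of these rises was limited to the lines lacking G9a and Glp. In E1 S1S2, Hspa12a had 158 to 196 reads, 3830403N18Rik 44 to 64, Tmeff2 302 to 324 and Otud1 1422 to 1611. In E1 the counts were 70 to 82, 1 to 5, 64 to 95 and 1063 to 1129 in the same order. E2 had 2 to 7, 0 to 2, 145 to 188 and 707 to 890. E1E2 had 3 to 5, 0 to 1, 181 to 219 and 1001 to 1250. Hspa12a was thus below WT in E2 and E1E2 in raw counts.

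Of the 33 neighbours, 2 were called lower than WT in E1E2 G9Gl and in 6KO2, Gprin1 and the small nucleolar RNA Snord7 (22 to 45 reads in WT, 8 to 14 in E1E2 G9Gl, 15 to 16 in 6KO2). Gprin1 ends 9 bp from the end of Cdhr2 on the opposite strand. It had 26 to 32 reads in WT, 59 to 76 in E1, 6 to 12 in E1 S1S2, 0 to 1 in E2 and in E1E2, none in E1E2 G9Gl, 87 to 108 in the 6KO1 line and 8 to 12 in 6KO2. Its counts were lowest where those of Cdhr2 were highest, in E1E2 G9Gl, and it was called higher than WT in 6KO1 (log2 fold change 1.60, adjusted p = 2.01e-07, edgeR). The low counts were already present in E2, before the loss of G9a and Glp.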

How the data were processed

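Total RNA of 24 MEF libraries (8 conditions, 3 each) was sequenced as stranded 75-base pairs. The authors trimmed reads with cutadapt 1.8.1, aligned them with STAR 2.5.2b to GRCm38 and deposited raw counts per gene and repeat element made with TEtranscripts 2.0.3. Of the rows, 47937 name genes and were used here, 1445 name repeat elements, and 1 names neither (0.002% of counts). Replicates differed by more than sampling noise (chi-square per gene 2.2 to 64.6). Counts of genes were fitted over all 24 libraries with edgeR 4.0.16 (quasi-likelihood, TMM factors, filterByExpr by condition, 18565 genes, R 4.3.3), and p-values were adjusted by Benjamini-Hochberg over all of them. Genes were called, two-sided, at an adjusted p up to 0.01 and a change of 1 or more on the log2 scale. Only E1 S1S2 against E1, E1E2 against E2 and E1E2 against E1 were tested for members, since other contrasts use libraries of the rule. The script was tested on simulated data. Members, lists and tests were chosen with earlier results of these data known. Per-library values are given for the 12 most read members, for those called or active in another condition, for the 5 largest differences each way between E1E2 G9Gl and 6KO2 and at the limit of 20, and here for the other members too. Neighbours named with values were chosen after their values were seen. Promoters are from RefSeq, shared words are 50-base exon sequences of GENCODE M21. Alternatives were DESeq2 1.42.0, other size factors and filters, fewer libraries, a replicate block and other limits of the rule. Counting error limits genes with few reads.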

Additional observations from a re-analysis of the deposited data

Results flagged for a closer look

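For 6 members, loss of Suv39h1 and Suv39h2 went with opposite changes in the 2 backgrounds in which the data hold that step, since every library of E1 S1S2 lay on one side of those of E1 and every library of 6KO2 on the other side of those of E1E2 G9Gl. The difference between the backgrounds was not tested, as the second step uses libraries that chose the genes, and each step also changes the clone. How many of all tested genes show such opposite changes, or full separation of E1 S1S2 from E1, was not counted. Full separation of 6KO2 from E1E2 G9Gl was common, with 34.3% of tested genes above and 33.2% below. The pattern is therefore not shown to be particular to the members. Vmn1r212 had a mean normalized count of 26.2 in E1 and 1.69 in E1 S1S2, but 49.9 in E1E2 G9Gl and 72 in 6KO2. Gm10639 went the other way, from 9.68 in E1 to 21.7 in E1 S1S2 and from 146 in E1E2 G9Gl to 25.8 in 6KO2. Gm28322 went from 0.622 in E1 to 10.8 in E1 S1S2 and from 173 in E1E2 G9Gl to 64.2 in 6KO2. Naip6 went from 0.912 in E1 to 3.41 in E1 S1S2 and from 552 in E1E2 G9Gl to 61.5 in 6KO2, Gm13348 from 2.26 to 4.61 and from 62.3 to 38.7, and Gm371 from 0 to 1.12 and from 481 to 26.2. For these last 3 the values in E1 and E1 S1S2 rest on at most 7 reads per library. None of them was called in E1 S1S2 against E1 (adjusted p = 0.0573, 0.184 and 0.0516 in the same order, edgeR).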

How the results depend on the processing

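The number of genes meeting the rule depends on its limits. It was 68 with at least 10 reads, 11 with at least 50 and 51 with up to 1 read over WT, and ran from 27 to 47 when 1 library was left out, the highest without WT replicate 2. With at least 10 reads, 3 members were active in E1 S1S2 and 1 in E1E2, and with at least 50 reads none was in E1, E1 S1S2 or E2 (0 each). Leaving out 1 library left the counts of active members at 2 in E1, 0 in E1E2, and 1 in each of E2 and E1 S1S2. Of the 7 members called in E1 S1S2 against E1, 4 were called when only the 6 libraries compared were fitted, and leaving out 1 library gave 6 to 8. For E1E2 against E2, 1 was called with DESeq2 and 1 with only the 6 libraries, and 1 to 3 when 1 library was left out. For E1E2 against E1 the last range was 2 to 3. No value changed sign. Replicate numbers did not pair the samples: the correlations of deviations between same-numbered libraries ran from -0.039 to 0.076, and a fit with the number as a replicate block called 7, 3 and 3 members in the 3 contrasts, against 7, 3 and 2.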
